A study of Homo sapiens with 2 samples.

Results

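The genes of the collagen chains and of the integrin subunits were examined for regions bound by CHD4 in 501Mel cells. Members were the protein-coding genes of GENCODE release 44, mapped to GRCh37 (hg19), whose symbol was COL, a number, A and a number, or ITGA or ITGB followed by a number or by 1 of the letters L, M, X, V, D and E. The rule took 69 genes, 44 collagen and 25 integrin, of 20098 protein-coding genes on chromosomes 1 to 22 and X. It left out *ITGA2B*, whose symbol has a number and a letter. A CHD4 peak was counted on a gene if it overlapped the gene or the 2000 bp before its start by at least 1 bp. Of 60126 peaks in the list, 263 lay on the members, 161 on collagen and 102 on integrin genes, and none was counted on more than 1 member.

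501Mel is an established human melanoma cell line, grown here in medium with 10% serum and given no treatment that the labels name. Chromatin was fixed with 0.4% paraformaldehyde, and single libraries of the CHD4 immunoprecipitate and of the input were sequenced, 1 of each, with no replicates. The deposited file is 1 list of broad peaks. It holds no read counts, so the depth behind a peak is unknown from the list, no spread between replicates can be given, and no test between conditions was possible.

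CHD4 is a chromatin remodelling ATPase of the NuRD complex, which also contains histone deacetylases. Collagens are triple-helical proteins of the extracellular matrix, built from chains that each have their own gene. Integrins are cell surface receptors made of an alpha and a beta subunit, which bind collagens, laminins, fibronectin or other cells and link them to the cytoskeleton, and melanoma cells use them to adhere and to migrate.

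The sequences under the strongest peaks, with 1 promoter that carried no peak, are given here so that the positions described further on can be read. Each is up to 300 bases around the centre of the peak on GRCh37, written 5′ to 3′ on the strand of the gene. Capitals mark letters that were searched for on both strands: TGACTCA (AP-1), GGAATG (TEAD), ACAAAG (SOX), CACGTG (E-box), CATGTG (M-box core) and the CTCF consensus. The first sequence is from intron 1 of *COL1A1* (chr17:48277607-48277906, minus strand), the second from intron 2 of *COL9A2* (chr1:40781000-40781261, minus strand, cut to leave out UTR bases of other transcripts), and the third from the promoter peak of *COL9A1* (chr6:71012879-71013178, minus strand). They are followed by intron 1 of *COL5A3* (chr19:10119097-10119396, minus strand), by the region before the canonical start of *ITGB2* (chr21:46344912-46345211, minus strand), by intron 1 of *ITGAE* (chr17:3695967-3696169, minus strand) and by the border of intron 27 and exon 28 of *ITGB4*, of which the last 71 bases are exon (chr17:73745963-73746262, plus strand). The last is the whole gap between the divergent *COL4A4* and *COL4A3* genes (chr2:228029170-228029339, plus strand), shown because neither gene had a peak.
COL1A1 intron 1: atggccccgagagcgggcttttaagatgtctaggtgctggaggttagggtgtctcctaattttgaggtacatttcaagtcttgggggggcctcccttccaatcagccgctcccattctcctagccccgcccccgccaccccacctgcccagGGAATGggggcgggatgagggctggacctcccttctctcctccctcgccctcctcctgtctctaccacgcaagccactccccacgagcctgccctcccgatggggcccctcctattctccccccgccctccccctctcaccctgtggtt
COL9A2 intron 2: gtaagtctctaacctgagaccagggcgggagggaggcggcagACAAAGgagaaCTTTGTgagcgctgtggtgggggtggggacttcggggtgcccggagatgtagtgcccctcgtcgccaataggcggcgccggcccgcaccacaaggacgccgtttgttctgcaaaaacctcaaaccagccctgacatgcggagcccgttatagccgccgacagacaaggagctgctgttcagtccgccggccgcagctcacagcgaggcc
COL9A1 promoter: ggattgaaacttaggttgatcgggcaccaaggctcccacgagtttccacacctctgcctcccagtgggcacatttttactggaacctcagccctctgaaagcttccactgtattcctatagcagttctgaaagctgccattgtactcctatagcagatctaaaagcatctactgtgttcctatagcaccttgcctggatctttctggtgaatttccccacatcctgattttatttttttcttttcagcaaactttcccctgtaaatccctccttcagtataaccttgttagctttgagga
COL5A3 intron 1: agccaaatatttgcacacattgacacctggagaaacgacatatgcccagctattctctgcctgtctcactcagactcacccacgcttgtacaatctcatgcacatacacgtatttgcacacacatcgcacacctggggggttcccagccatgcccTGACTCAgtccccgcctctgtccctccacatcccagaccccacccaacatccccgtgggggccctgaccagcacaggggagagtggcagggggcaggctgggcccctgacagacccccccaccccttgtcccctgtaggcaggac
ITGB2 upstream: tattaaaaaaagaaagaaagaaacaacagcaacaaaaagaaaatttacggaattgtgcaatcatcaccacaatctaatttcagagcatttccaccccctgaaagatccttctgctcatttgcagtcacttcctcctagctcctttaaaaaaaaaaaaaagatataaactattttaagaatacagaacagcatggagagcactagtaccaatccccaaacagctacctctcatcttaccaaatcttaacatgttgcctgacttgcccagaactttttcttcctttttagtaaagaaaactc
ITGAE intron 1: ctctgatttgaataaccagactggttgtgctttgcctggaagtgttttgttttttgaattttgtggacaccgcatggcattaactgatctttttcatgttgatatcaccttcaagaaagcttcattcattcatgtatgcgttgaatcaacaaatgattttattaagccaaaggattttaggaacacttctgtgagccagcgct
ITGB4 intron 27 and exon 28: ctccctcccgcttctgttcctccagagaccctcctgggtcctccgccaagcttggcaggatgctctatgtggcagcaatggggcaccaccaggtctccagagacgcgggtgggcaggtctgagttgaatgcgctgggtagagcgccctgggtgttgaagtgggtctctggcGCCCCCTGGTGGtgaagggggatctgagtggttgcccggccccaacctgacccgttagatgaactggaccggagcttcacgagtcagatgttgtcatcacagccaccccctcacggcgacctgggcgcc
COL4A4-COL4A3 gap: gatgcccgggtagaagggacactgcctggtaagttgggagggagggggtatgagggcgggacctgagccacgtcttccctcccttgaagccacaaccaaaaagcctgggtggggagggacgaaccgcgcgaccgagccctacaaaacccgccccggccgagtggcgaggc

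At least 1 CHD4 peak lay on 52 of the 69 members, or 75.4% (95% Wilson interval 64.0 to 84.0%), where 58.5% of all protein-coding genes had one. The members are long genes, with a median length of 90.9 kb against 27.3 kb for all protein-coding genes, and long genes more often hold a peak. Protein-coding genes whose length was within 25% of the member's had a peak in 72.7% of cases, a share inside the members' interval. Integrin genes had a peak in 22 of 25 cases (88.0%, 70.0 to 95.8%), where their length-matched genes reached 70.4%. Collagen genes had a peak in 30 of 44 (68.2%, 53.4 to 80.0%), where their length-matched genes reached 74.0%. The length-matched share therefore lay within the interval for both families, close to its lower end for the integrins. Among the collagens over 100 kb, 16 of 26 had a peak (61.5%, 42.5 to 77.6%), where 80.2% of all protein-coding genes over 100 kb and 81.0% of the length-matched genes had one, both above the interval. Of the 10 without a peak, 5 were type IV collagen genes, which lie in close pairs. Chromosome X holds 2 of these 5, and 23.9% of its protein-coding genes had a peak. The matching did not take the chromosome into account. With matched genes limited to the member's own chromosome, the matched share over all 69 members was 74.8%. It was not computed for the collagens over 100 kb alone. The intervals cover counting error only, and genes are not replicates.

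The number of peaks differed more between the families than the share of genes. Integrin genes held 102 peaks, where the mean of their length-matched genes summed to 68.1, and 17 of the 25 held more peaks than the median of their length-matched genes while 5 held fewer. Collagen genes held 161 peaks against 180.1 for length-matched genes, with 21 above and 20 below the median. A single gene, *COL25A1*, gave 39 of the collagen peaks, and without it the collagens held 122 against 170.6. Without *ITGA9*, the integrin gene with the most peaks, the integrins held 81 against 59.3. Per 100 kb, the integrin genes held 4.49 peaks, where the sum from their length-matched genes gave 2.99. The collagen genes held 2.38, where it gave 2.66. The figure for all protein-coding genes was 2.59 and is not on the same basis. There, a peak on overlapping genes counted once, while their shared bases counted for each gene.

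**Figure D1:**
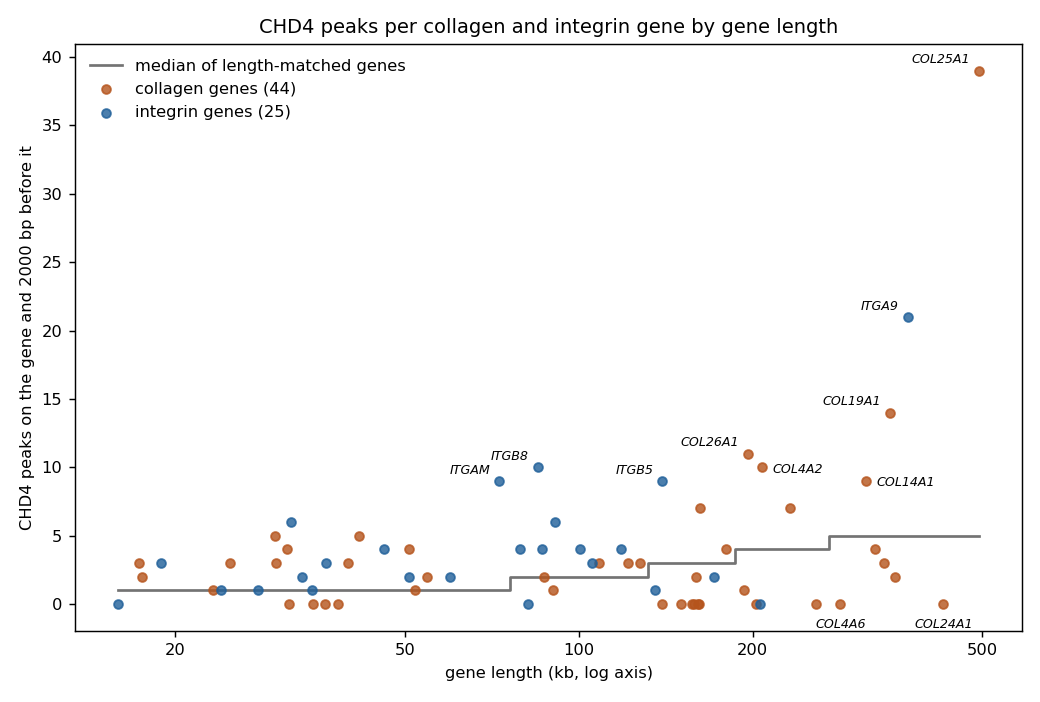
CHD4 peaks on each of the 69 genes (vertical axis, number of peaks) against gene length in kb (log axis), with collagen genes in orange, integrin genes in blue and the median of length-matched genes as a grey line. *COL25A1* with 39 and *ITGA9* with 21 peaks stand far above the line, whereas *COL24A1*, of 427.7 kb, has none.

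Peaks were spread unevenly over the collagen classes, by count. The fibrillar collagens, whose chains assemble into the fibrils of skin, bone, tendon and cartilage, had a peak in 5 of 11 genes (45.5%, 21.3 to 72.0%), with 71.2% for length-matched genes, which is inside the interval. *COL1A1*, *COL11A1*, *COL11A2*, *COL5A2* and *COL5A3* had peaks, whereas *COL1A2*, *COL2A1*, *COL3A1*, *COL5A1*, *COL24A1* and *COL27A1* had none. Type I collagen is built from the chains of *COL1A1* and *COL1A2*, so that 1 of its genes had peaks and the other had none. The network-forming collagens had a peak in 3 of 9 genes (33.3%, 12.1 to 64.6%), with 77.0% for length-matched genes, which is above the interval. This list holds the 6 chains of type IV collagen, the sheet-like collagen of basement membranes, of which only *COL4A2* had any. The 5 without a peak also count among the collagens over 100 kb, so these low shares overlap. The fibril-associated (FACIT) collagens, which decorate fibrils, had a peak in 10 of 10 genes (interval 72.2 to 100%), with 73.0% for length-matched genes, and the transmembrane collagens in 4 of 4 (51.0 to 100%), with 78.3%, both inside the intervals. All 3 peaks of the FACIT gene *COL21A1* and all 3 of the network-forming gene *COL10A1* lay upstream of the canonical transcript, inside longer annotated genes. These class counts therefore depend on how far a gene is taken to reach. The lists were drawn up with earlier results of these data known, and the counts are descriptions.

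Of the integrins, the 4 alpha subunits that bind collagen, the 3 that bind laminin and the 5 of leukocytes all had at least 1 peak. Their length-matched genes had one in 73.0%, 66.5% and 67.3% of cases, each inside the interval of the list, whose lower ends were 51.0, 43.9 and 56.6%. The beta subunits had a peak in 7 of 8 genes (87.5%, 52.9 to 97.8%), with 69.6% for length-matched genes, and those 7 each held more than the median of their length-matched genes. *ITGA4*, *ITGA8* and *ITGB7* were the integrin genes without a peak. *ITGA4* and *ITGB7* encode the subunits of the gut-homing receptor of lymphocytes, and *ITGA8* a partner of the beta 1 subunit.

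**Figure D2:**
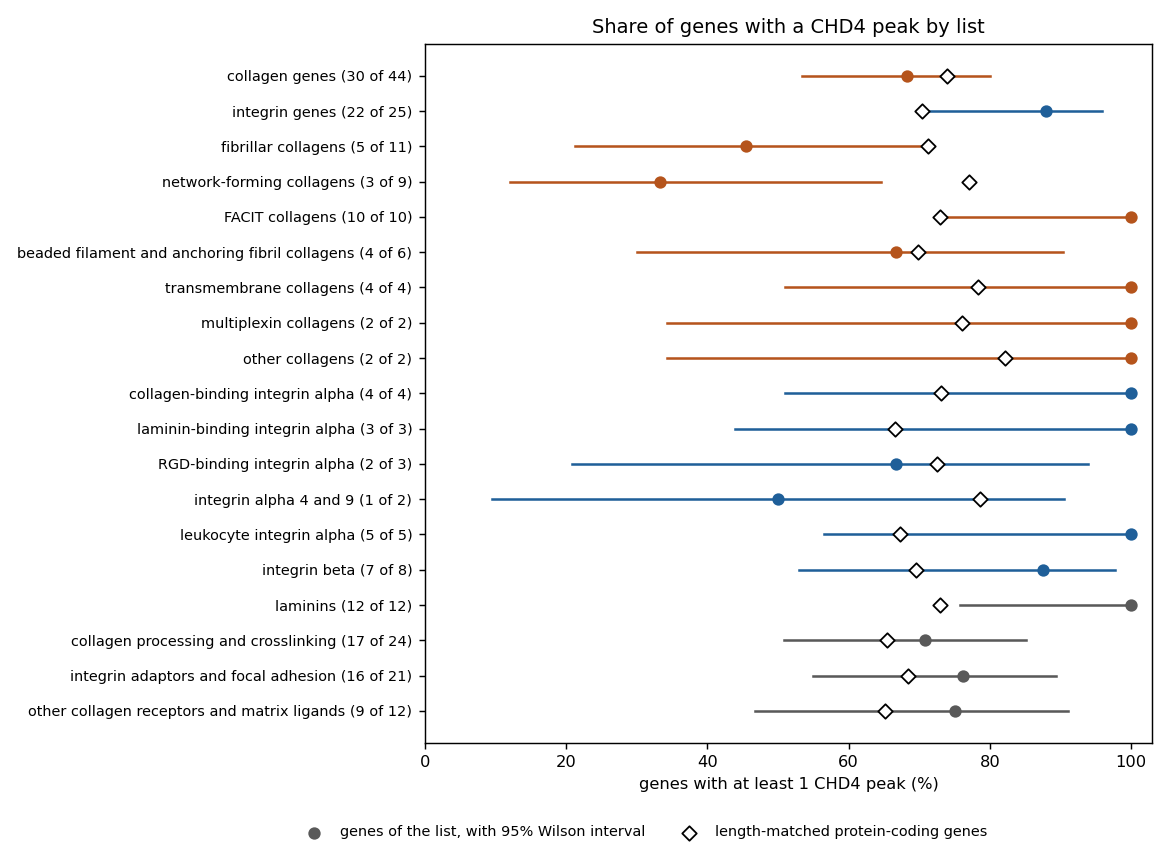
Share of genes with at least 1 CHD4 peak (horizontal axis, %) for each list, as points with 95% Wilson intervals, and for their length-matched protein-coding genes, as open diamonds; collagen lists are orange, integrin lists blue and other matrix and adhesion lists grey. The diamond of the network-forming collagens, at 77.0%, lies above their interval, and that of the laminins, at 72.9%, below theirs.

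*COL25A1* (ENSG00000188517), which encodes a transmembrane collagen found in neurons, is the longest member at 494.0 kb and held 39 peaks. The median of its 380 length-matched genes was 5 peaks, and 97.6% of them held fewer. Of the 39 peaks, 23 had their larger part in intron 3, with fold enrichments of 2.59 to 3.76. This intron takes up 250403 of the 494028 bp of the gene. The median distance between neighbouring peaks was 5.0 kb, and the longest stretch without one was 84.3 kb. The fold enrichment, which is the authors' ratio of ChIP signal to background, had a median of 3.19 over these peaks, and 19 of them reached a −log10 q of 2, which is a q of 0.01.

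*ITGA9* (ENSG00000144668), the alpha subunit of a receptor for tenascin and osteopontin, held 21 peaks in 371.4 kb, against a median of 5 for length-matched genes. They were spread over both ends, with 10 in the first and 11 in the second part of the gene, each of equal length. The longest member peak, of 8836 bp, covered 6200 bp of its intron 15, all of exon 16 and 2486 bp of intron 16. *ITGB8*, the beta subunit that binds latent TGF-beta with the alpha V subunit, held 10 peaks in 85.1 kb against a median of 2. Its peaks fell into a group near the start and a group in the last part, with 42.8 kb free of peaks between them. *ITGAM*, the alpha subunit of the complement receptor of myeloid cells, held 9 in 72.9 kb against a median of 1, although only 2 of these reached a −log10 q of 2. The 200 kb on either side of *ITGAM* also held many, 8.5 per 100 kb. *ITGB5*, another partner of the alpha V subunit, held 9, and *ITGAV* itself held 6, of which none reached a −log10 q of 2. *ITGA7*, a laminin receptor of muscle, also held 6, in 31.8 kb.

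Among the other collagens with many peaks, *COL19A1* held 14, *COL26A1* 11, *COL4A2* 10 and *COL14A1* 9. In *COL4A2* (ENSG00000134871), 7 of the 10 peaks had their larger part in intron 4, which takes up 67181 of the gene's 207398 bp. None lay within 60 kb of the gene's start, the first being centred 62.4 kb after it. In *COL26A1*, of 196149 bp, 5 peaks lay in intron 1, of 56786 bp, and the last 5 beyond a stretch of 112.1 kb without any. Of the 69 members, 6 (8.70%) held at least 10 peaks, where 4.27% of all protein-coding genes and 10.3% of the length-matched genes did. Among members over 100 kb it was 5 of 34 (14.7%), where 20.6% of all protein-coding genes over 100 kb did. Members with fewer than 10 peaks but at least 1 held 1 to 9 each.

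**Figure D3:**
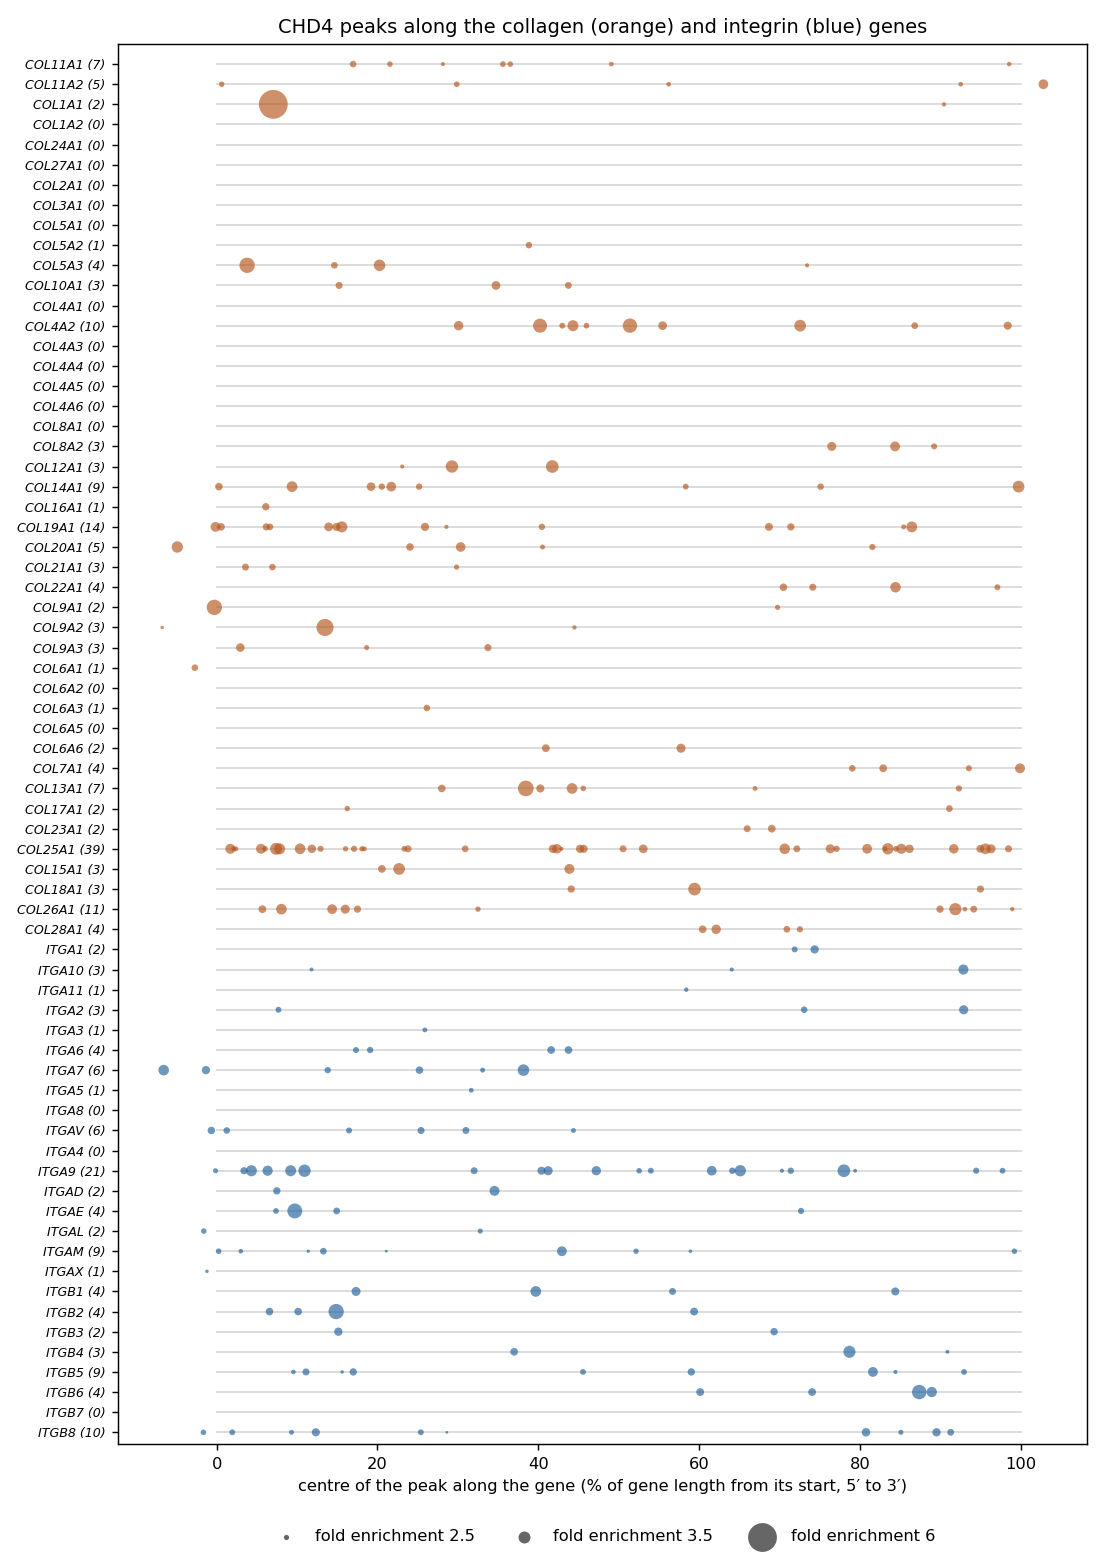
Centres of the 263 CHD4 peaks along the 69 genes, in percent of gene length from the start, with 1 line per gene, its number of peaks in brackets and the area of a point growing with fold enrichment. The large point near the start of *COL1A1* is the strongest peak, of 6.27-fold, and 17 lines have no point.

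By fold enrichment the members' peaks were ordinary for the list. Their median was 3.05, with a range of 2.41 to 6.27, and that of all peaks on protein-coding genes was 3.09. The methods name a q threshold of 0.01 for a call in broad mode. The list holds peaks with q values up to 0.099. The paper's reporting summary gives its peaks at a false discovery rate equal to that threshold, which differs from the q values in the list. How the threshold applies to broad regions is not stated in the sources used here. A q above 0.01 therefore does not mean that a peak failed the authors' call. A −log10 q of at least 2 was reached by 115 of the 263 member peaks (43.7%) and missed by the other 148, where 48.5% of the peaks on protein-coding genes reached it. The share was 48.4% for collagen and 36.3% for integrin peaks, so that the integrin genes held more peaks than the length-matched genes but with a smaller share of them at this q. At least 1 such peak lay on 38 of the 69 members, where 43.4% of all protein-coding genes and 58.0% of the length-matched genes had one.

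The strongest member peak lay in intron 1 of *COL1A1* (ENSG00000108821), the gene of the alpha 1 chain of type I collagen. It spanned 376 bp (chr17:48277570-48277945), with its centre 1235 bp after the canonical start, and was enriched 6.27-fold at a −log10 q of 10.9. Of all peaks, 99.9% had a lower fold enrichment. The only other peak of the gene, over exon 50, had a fold enrichment of 2.64. The printed intron sequence holds 1 GGAATG and 64.0% G and C.

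*COL9A2* (ENSG00000049089) had the second strongest, of 4.53-fold and a −log10 q of 6.30, over exon 2 and parts of introns 1 and 2. These were the only 2 member genes with a −log10 q of at least 5, where 4.75% of protein-coding genes had such a peak. The printed sequence of *COL9A2* holds ACAAAG on both strands, 5 bases apart and facing each other. This arrangement, ACAAAG followed after any 5 bases by CTTTGT, was searched for after the sequence had been seen, and it occurred in the windows of 25 of 60099 peaks, of which this was the only one on a member. *COL9A2* and *COL9A1* encode chains of type IX collagen, a fibril-associated collagen of cartilage, together with *COL9A3*. All 3 genes had a peak within 1000 bp of a start. The *COL9A1* peak lay over the canonical start itself, with its centre at −242 bp from it and 4.27-fold enrichment at a −log10 q of 4.75. The *COL9A3* peak, of 5000 bp and 3.27-fold, was centred at −71 bp from the canonical start.

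The next collagen peaks were those of *COL13A1*, a transmembrane collagen of the neuromuscular junction, at 4.32-fold in intron 2, and of *COL5A3*, a minor fibrillar chain, at 4.27-fold in intron 1. The printed *COL5A3* sequence holds 1 TGACTCA. The *COL4A2* gene had peaks of 4.12-fold and 4.07-fold, both in intron 4.

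The strongest integrin peak was centred at −4248 bp from the canonical start of *ITGB2* (ENSG00000160255), the beta subunit shared by the leukocyte integrins, inside the longer annotated gene, and reached 4.27-fold at a −log10 q of 4.36. Those of *ITGAE*, the alpha subunit of the receptor for E-cadherin on lymphocytes, at 4.20-fold, and *ITGB6*, a partner of the alpha V subunit in epithelia, at 4.14-fold, were short, of 203 and 217 bp. They were followed by *ITGA9* at 3.88-fold and by *ITGB4*, the beta subunit of hemidesmosomes, at 3.79-fold over 267 bp of intron 27 and 110 bp of exon 28. The *ITGB4* window held 1 of the 2 matches to the CTCF consensus among the member peaks, on the minus strand. No integrin peak reached a −log10 q of 5.

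**Figure D4:**
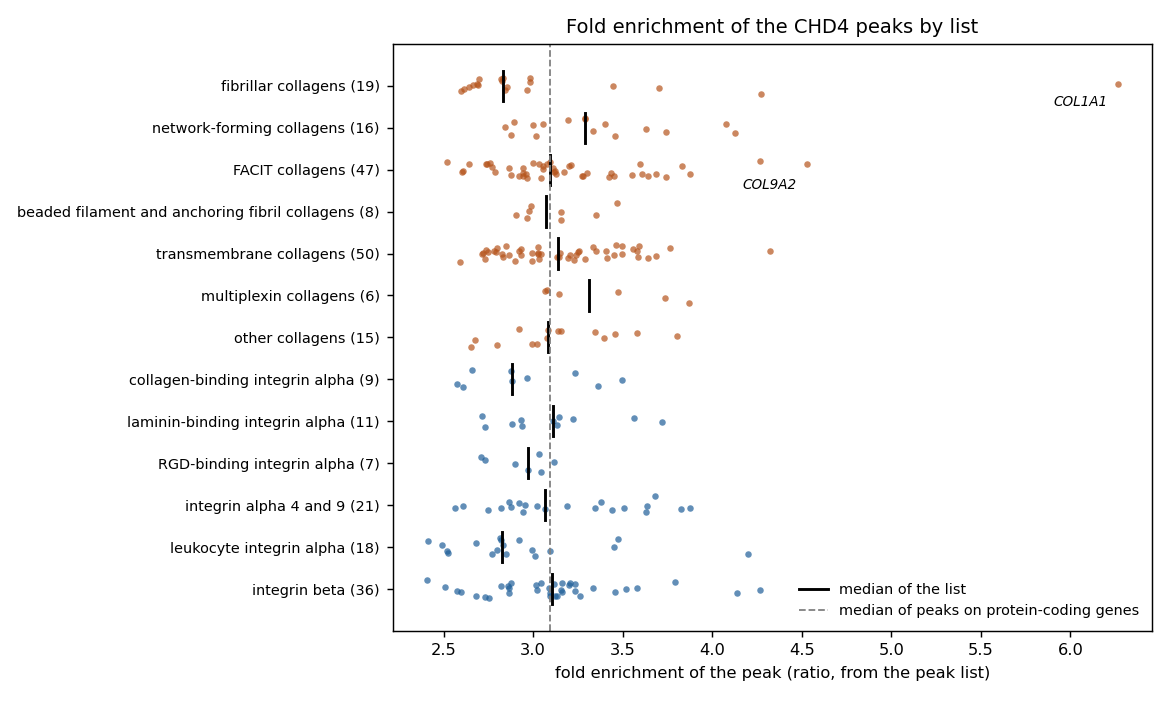
Fold enrichment of each of the 263 peaks (horizontal axis, ratio) by list, with the median of each list as a black bar and the median of all peaks on protein-coding genes, 3.09, as a dashed line. The points of *COL1A1* at 6.27 and *COL9A2* at 4.53 lie to the right of all others.

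At promoters, a peak within 1000 bp of any annotated start was found for 30 of the 69 members (43.5%), where 42.6% of all protein-coding genes and 49.2% of length-matched genes had one. For 16 of the 30 it was only a start other than the canonical one, and these were *COL1A1*, *COL4A2*, *COL6A6*, *COL7A1*, *COL8A2*, *COL9A2*, *COL11A1*, *COL13A1*, *COL20A1*, *COL25A1*, *ITGA3*, *ITGAE*, *ITGB2*, *ITGB4*, *ITGB6* and *ITGB8*. At the start of the canonical transcript a peak was found for 14 of the members (20.3%), where 34.8% of all and 37.4% of length-matched genes had one. The collagens had 6 of 44 (13.6%, 36.6% for length-matched genes), namely *COL6A1*, *COL9A1*, *COL9A3*, *COL11A2*, *COL14A1* and *COL19A1*. The integrins had 8 of 25 (32%, 38.8%), namely *ITGA7*, *ITGA9*, *ITGAL*, *ITGAM*, *ITGAV*, *ITGAX*, *ITGB1* and *ITGB5*. The peaks at the start of *COL19A1* also lay within 1000 bp of a start of *LMBRD1*, as did 1 *ITGA7* peak of *BLOC1S1* and 1 *COL7A1* peak of *UCN2*.

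The 6 type IV collagen genes lie in divergent pairs, each with starts close together. *COL4A4* and *COL4A3* are 170 bp apart and *COL4A6* and *COL4A5* 340 bp apart, and *COL4A1* and *COL4A2* overlap at their starts. No CHD4 peak lay over the shared starts of any of the 3 pairs. *COL3A1* and *COL5A2*, which lie tail to tail on chromosome 2, held 0 and 1 peaks. *COL6A1* and *COL6A2*, 2 of the chains of type VI collagen, held 1 and 0, *COL6A5* and *COL6A6* held 0 and 2, and *ITGA1* and *ITGA2*, both collagen receptor subunits, held 2 and 3, with no peak in the gap of any of these pairs. On chromosome 16, *ITGAM*, *ITGAX* and *ITGAD*, which encode alpha subunits that pair with the *ITGB2* product, follow each other on the same strand and held 9, 1 and 2 peaks, with 2 more in the gap between *ITGAM* and *ITGAX*.

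Most member peaks lay in introns. Of the collagen peaks, 77.0% had their centre in an intron after the first, which makes up 76.8% of the bases, and 6.83% in the first intron, which makes up 13.4%. *COL25A1* alone gave 39 of the 161 collagen peaks, 23 of them mainly in its intron 3. Of the integrin peaks, 24.5% had their centre in the first intron, which makes up 15.5%, and 57.8% in later ones, which make up 71.8%. For protein-coding genes, with a peak counted on each gene it overlaps, it was 21.3% in the first intron, which makes up 19.5%. Later introns held 43.6% and make up 59.8%. An exon was touched by 21.1% of the collagen peaks, compared with 16.7% for integrin genes and 17% for protein-coding genes. Exons make up 4.03% of the collagen bases, 6.27% of the integrin bases and 5.12% of those of protein-coding genes.

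Members without a peak had fewer peaks beside them at the median than members with one, with exceptions. In the 200 kb on either side, members with a peak had a median of 3.0 peaks per 100 kb and those without had 1.5, where all protein-coding genes had 2.75. Among protein-coding genes over 100 kb the medians were 2.5 with a peak and 0.75 without, so the difference is not particular to the members. *COL4A5* and *COL4A6* on chromosome X and *COL5A1* on chromosome 9 had no peak beside them either, and on chromosome X 23.9% of protein-coding genes had a peak. The longest members without a peak were *COL24A1* (427.7 kb), *COL4A6* (283.9 kb), *COL4A5* (257.7 kb), *ITGA8* (206.0 kb) and *COL5A1* (203.0 kb). *COL24A1* had none while its flanks held 3.75 per 100 kb, and *ITGB7* had none while its flanks held 7.25. *COL4A1* and *COL4A3* had none beside flanks of 4.75 and 4.25, those of *COL4A1* including the peaks of *COL4A2*. In the opposite sense, *ITGB1*, the beta subunit shared by most matrix receptors, and *COL22A1* each held 4 peaks with none in their flanks. The members on chromosome 16 all had peaks and dense flanks, of 11 (*ITGAL*), 8.5 (*ITGAM*), 7.75 (*ITGAX*) and 6.75 (*ITGAD*) per 100 kb. Copy number of these regions was not measured here, and its part in the counts was not tested.

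**Figure D5:**
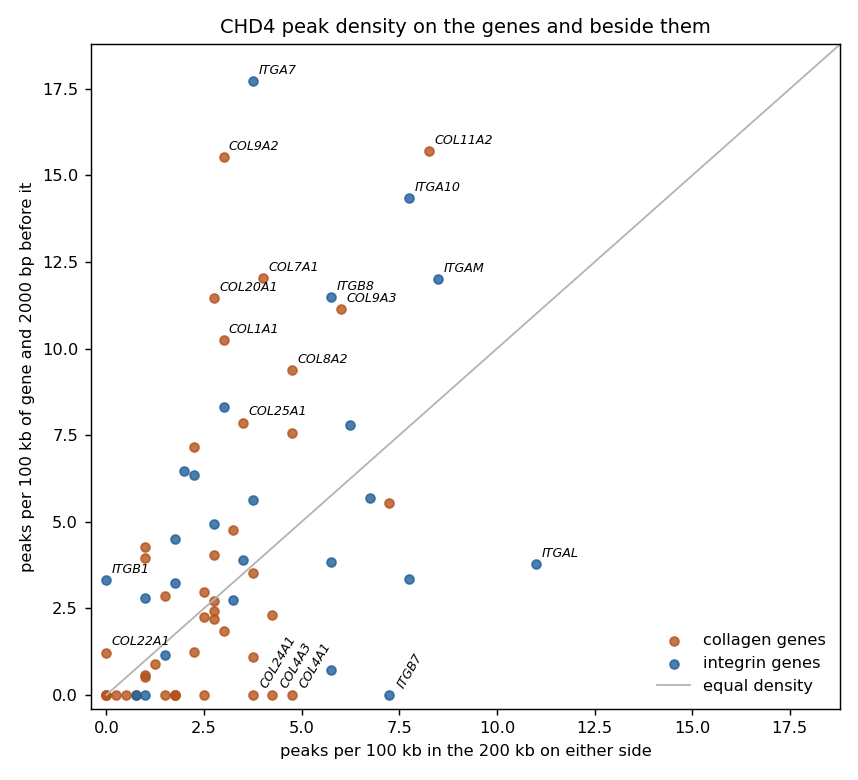
CHD4 peaks per 100 kb of each gene and its 2000 bp before the start (vertical axis) against peaks per 100 kb in the 200 kb on either side (horizontal axis), with collagen genes in orange, integrin genes in blue and the line of equal density in grey. *ITGB7* lies on the horizontal axis at 7.25. *ITGB1* and *COL22A1* lie on the vertical axis, since their flanks hold no peak.

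The letters searched for occurred in the member peaks about as often as in all peaks. In windows of 300 bp, ACAAAG was found in 24% of member peaks and 25% of all peaks, CATGTG in 22.4% and 22.3%, GGAATG in 18.3% and 17%, TGACTCA in 6.46% and 6.73%, and CACGTG in 4.94% and 5.02%. The CTCF consensus was found in 0.760% and 0.953%. The shares in all peaks lay within the 95% Wilson intervals of the member peaks for each of the 6. None of the motifs spelled out here contains another, and a match is a description of the letters only. Windows rich in CpG, with a ratio of observed to expected CpG of at least 0.6, made up 3.42% of the member peaks, 7.79% of all peaks and 10.4% of the peaks on protein-coding genes.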

How the data were processed

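CHD4 ChIP-seq of 501Mel cells comprised single ChIP and input libraries, 1 of each. Reads of 50 bases were aligned by the authors to hg19 (Bowtie), and MACS2 was run in broad mode with an extension of 151 bp; the submitters' processing notes name Bowtie 1.0.0, MACS2 2.1.1.20160309 and bcl2fastq 2.17.1.14. Whether the input served as control for the caller is not given in the sources used here. The deposited list gives per peak the authors' score, their fold enrichment (a ratio), and the −log10 p and −log10 q of their peak caller; these values described, ranked and filtered peaks. The list holds no read counts, so the depth behind each peak is unknown from it. Total and unique reads of the 2 libraries are given in the paper's reporting summary and were not used here.

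Positions were counted from 1 and compared with GRCh37 and GENCODE release 44 mapped to it. Peaks outside chromosomes 1 to 22 and X were left out. A promoter was 1000 bp on either side of a start. Length-matched genes were all non-member protein-coding genes within 25% of a member's length, averaged per member. Because shorter genes are more numerous, the matched genes had a median length of 0.969 of the member's, and matching within 10% raised the matched share from 72.7% to 73.3%. The computations were tested on simulated data. Wilson intervals at 95% cover counting error only; neither genes nor peaks are replicates, and no p-value was computed.

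Named genes were mainly the 5 collagen and 5 integrin genes with the strongest peaks, the 5 and 5 with the most peaks, neighbouring members, members with a promoter peak and the longest without a peak. The members and lists were chosen with earlier results of these data known. Analyses ran in Python 3.11.15 with pandas 2.3.3, numpy 2.4.6, pysam 0.24.0, scipy 1.17.1, samtools 1.23.1 and matplotlib 3.10.9.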

Additional observations from a re-analysis of the deposited data

How the results depend on the processing

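Of 81 values recomputed under alternatives, 64 stayed inside an interval set around the reported value and 17 left it. For most results this was a counting interval. For the number of peaks it was a fixed band of 175 to 394.5 around 263, chosen by hand. The length-matched share was given a Wilson interval as for 69 genes, although many more genes entered it. The 17 that left it came from the threshold on the peaks, from the definition of the promoter and from the ranking value. A stricter threshold can only lower counts, shares and densities. The −log10 q is on another scale than the fold enrichment, so its median could not be compared with that interval. With only peaks of a −log10 q of at least 2, a peak lay on 55.1% of the members, on 56.0% of the integrin genes and on 58.0% of the length-matched genes. The number of peaks was then 115, the density 1.27 per 100 kb, the share with a promoter peak 21.7% and the median fold enrichment 3.44. The length-matched genes of the integrins reached 54.5% at that threshold, so the higher share of integrin genes rested on peaks of lower confidence. With a −log10 q of at least 5, 2 peaks remained, on 2.90% of the members, 4.55% of the collagen and 0% of the integrin genes, against 7.36% of length-matched genes; the density was 0.0221 per 100 kb, the promoter share 2.90% and the median fold enrichment 5.4. With the canonical start alone, the promoter share was 20.3%. With −log10 q in place of fold enrichment, the median was 1.90. Taking each gene as its canonical transcript, an alternative chosen after seeing the data, left a peak on 72.5% of the members. It left one on 28 of 44 collagen genes (63.6%), on 88.0% of the integrin genes and on 69.1% of the genes length-matched to all members. No paired analysis was possible because ChIP and input were each sequenced once. For the same reason no library could be left out. The list gives no read counts, so a gene without a peak is a gene where none was called, not one shown to be unbound.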

Other observations

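Genes that act with collagens and integrins were listed as well. All 12 laminin genes, whose products bind integrins in basement membranes, had a CHD4 peak, with 72.9% for length-matched genes (95% Wilson interval of the list 75.8 to 100%), and they held 77 peaks where length-matched genes summed to 44.6. Both laminins and type IV collagens form basement membranes, and 1 of the 6 type IV genes had a peak (16.7%, 3.01 to 56.4%), with 81.1% for length-matched genes. These type IV genes were already counted in the network-forming list and among the collagens over 100 kb. The integrin adaptors and focal adhesion proteins had a peak in 16 of 21 genes, with 68.4% for length-matched genes, and held 94 peaks against 60.1. The enzymes that process and crosslink collagen had a peak in 17 of 24 genes (65.5% for length-matched genes), and the other collagen receptors and matrix ligands in 9 of 12 (65.1%).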
